A study of Sus scrofa with 14 samples.

Results

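PLAU and PLAT, the genes of the urokinase-type and the tissue-type plasminogen activator, were read in pig meniscus by 8 array probes. The members were all non-control probes whose RefSeq transcript belongs to either gene, whatever their signal. There were 2 probes for PLAU and 6 for PLAT, of 43603 distinct probes and 2389 named genes on the array. All 8 were well above background on each of the 14 arrays, none of their spots was saturated, and all 8 passed the filter on dim probes.

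The meniscus is the fibrocartilage pad between the femur and the tibia. RNA came from 14 male Wuzhishan pigs, a miniature breed, aged 6 to 7 months and weighing 15 to 18 kg, which had been divided at random into groups of 7. The sham group had a sham operation and the osteoarthritis (OA) group had surgery on the anterior cruciate ligament of the knee, a model of joint instability, and meniscus was taken 24 weeks later in both. Each array held the RNA of 1 tissue sample and was taken as 1 animal, so that p-values measure the spread between these arrays.

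Both activators are secreted serine proteases that cut plasminogen, an abundant plasma protein, into the active protease plasmin. Urokinase works mainly at cell surfaces, where a receptor holds it, and is linked to matrix breakdown and cell migration. Tissue-type activator is made largely by endothelium, binds fibrin and drives the removal of clots. In cartilage and fibrocartilage, plasmin is known to cleave matrix proteins and to activate latent matrix metalloproteinases, and serpins limit both activators.

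The OA arrays were dimmer than the sham arrays. The 75th percentile of the processed signal was 539 ± 82.6 on the sham arrays and 274 ± 125 on the OA arrays (SD, n = 7 per group), and each array was divided by its own percentile. Signals are given below as scaled signal, in arbitrary units, after that division and multiplication by 368, the geometric mean of the 14 percentiles. Sham arrays 1 to 4 lay on slide 1 and 5 to 7 on slide 2, while OA 1 lay on slide 3, OA 2 to 5 on slide 4, and OA 6 and 7 on slide 5. No slide and no scan day held both groups, so group and slide cannot be told apart for any value below. Markers of the labelled tissue were present: ACAN, the main proteoglycan of cartilage, had median scaled signals of 85080 in sham and 83871 in OA. SOX9, a transcription factor of cartilage cells, had medians of 472 and 351. COL2A1 and COL1A1 were not analysed here.

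PLAU was bright on 1 probe, whose values ran higher on some OA arrays without a difference that passed the test. On this probe, A_72_P073101, the scaled signal on the sham arrays ranged from 1136 through a median of 5056 to 6554. On the OA arrays it ranged from 4578 through 5566 to 12393. OA 3, OA 5 and OA 4 lay above every sham array, and sham 2 and sham 3, at 1136 and 2656, lay below every OA array, while the other 9 arrays overlapped. The log2 difference was 0.72 ± 0.36 (SE, n = 7 per group), a 1.65-fold higher mean in OA with a 95% interval from 0.97-fold to 2.79-fold, and the limma adjusted p was 0.28. All 7 OA arrays were above the sham mean, which sham 2 and sham 3 pull down.

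The arrays outside the range of the other group on PLAU A_72_P073101 lay on a single slide in each group. The 3 OA arrays above the sham range were on slide 4, whose median was 8179, while slides 3 and 5 had 5137 and 4794. The 2 sham arrays below the OA range were on slide 1, whose median was 3807, while slide 2 had 6117. Without slide 1 the log2 difference was 0.17 and without slide 4 it was 0.29. These slides hold the extreme arrays, so a smaller difference without them follows from that choice. Without slide 2 it was 1.13, without slide 3 it was 0.78 and without slide 5 it was 0.90 (limma adjusted p = 0.18 to 0.24). With the slide as a random block the difference was 0.61 ± 0.45 with a limma adjusted p of 0.74. The 4 arrays of slide 4 were also dim, with 75th percentiles of 156 to 250. A fit with array brightness as a covariate gave 0.68 ± 0.60 (limma adjusted p = 0.83). Before division by the percentile, the median processed signal of this probe was 8199 on sham and 5506 on OA arrays, so that its higher OA values are relative to each array's other probes.

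The second PLAU probe, A_72_P010246, gave a low signal and no difference. It lay below the 75th percentile on all 14 arrays. The scaled signal ran from 126 through 172 to 343 on the sham arrays and from 106 through 167 to 364 on the OA arrays. Sham 4, OA 5 and OA 6 were the highest arrays, and the groups overlapped over nearly their whole range. The log2 difference was -0.01 ± 0.28 (95% interval -0.61 to 0.59, limma adjusted p = 0.99). This interval covers changes of up to about 1.51-fold upward and down to 0.66-fold of the sham level. Which stretch of the transcript either probe reads was not analysed here.

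**Figure D1:**
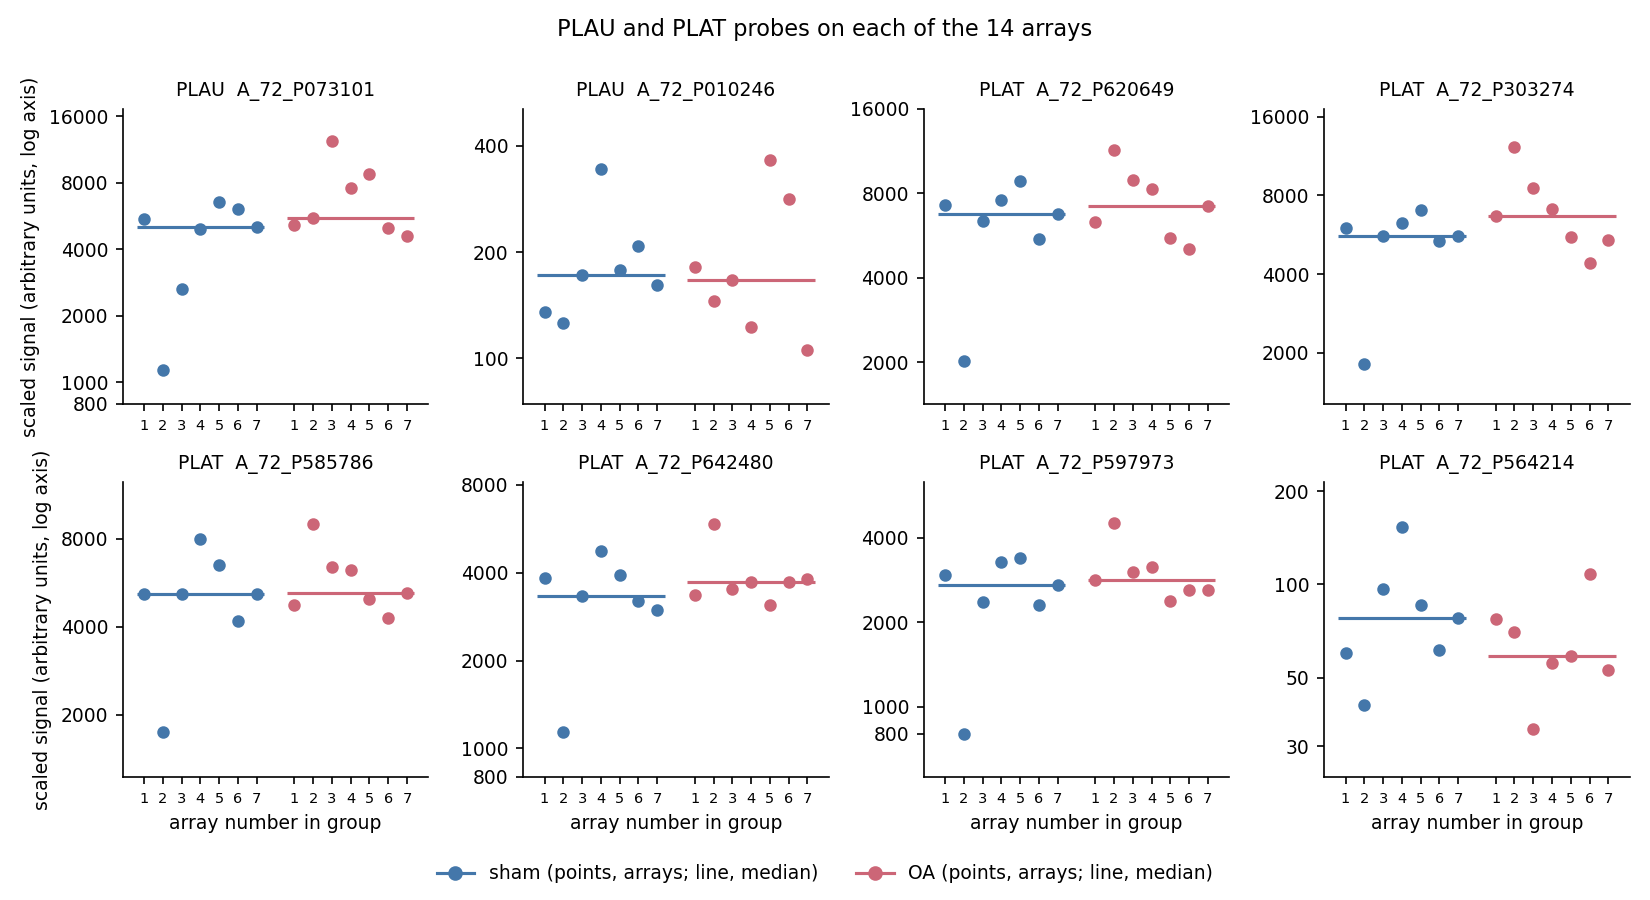
Scaled signal (log axis, arbitrary units) of the 2 PLAU and 6 PLAT probes on each of the 14 arrays, with sham arrays 1 to 7 in blue, OA arrays 1 to 7 in red, and a line at each group's median. Sham 2 is the lowest point on the bright PLAU probe and on the 5 bright PLAT probes, and OA 2 is the highest point on those 5 PLAT probes.

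PLAT, whose product is the fibrin-bound activator used as a clot-dissolving drug, was bright on 5 of its 6 probes, and the groups overlapped on all of them. On the brightest, A_72_P620649, the scaled signal ranged from 2028 through 6762 to 8876 on the sham arrays and from 5051 through 7203 to 11468 on the OA arrays. Sham 2 stood alone at the bottom, since the next sham array was at 5512, and OA 2 stood at the top. The other 12 arrays of both groups shared the range between. The log2 difference was 0.32 ± 0.29 (SE, n = 7 per group; 1.25-fold, 95% interval 0.81-fold to 1.90-fold; limma adjusted p = 0.58), and 5 of 7 OA arrays were above the sham mean.

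The other bright PLAT probes showed the same order at both ends. A_72_P303274 ran from 1815 through 5598 to 7010 on sham and from 4420 through 6647 to 12288 on OA arrays, with a log2 difference of 0.43 ± 0.29 and a limma adjusted p of 0.43. A_72_P585786 ran from 1749 through 5186 to 8002 and from 4296 through 5239 to 8957. On both, sham 2 was the lowest and OA 2 the highest of the 14 arrays. A_72_P642480 ran from 1138 through 3333 to 4759 on sham and from 3100 through 3703 to 5861 on OA arrays. A_72_P597973 ran from 799 through 2711 to 3405 and from 2386 through 2832 to 4540. These last 3 probes differed by 0.26 to 0.34 on the log2 scale, with limma adjusted p-values of 0.54 to 0.64.

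The sixth PLAT probe pointed the other way. A_72_P564214 was dim, below the 75th percentile on all 14 arrays, and its scaled signal ran from 40.7 through 77.9 to 153 on the sham arrays and from 34.1 through 58.7 to 108 on the OA arrays. Sham 4 was the highest and OA 3 the lowest array, and 2 of 7 OA arrays were above the sham mean. The log2 difference was -0.30 ± 0.28 (95% interval -0.90 to 0.30, limma adjusted p = 0.60).

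None of the 8 probes passed the limma test at an adjusted p of 0.05 (0 of 8), and an unadjusted p under 0.05 was reached by 0. Over all 38818 tested probes 3.73% were called, 2.89% as higher and 0.848% as lower in OA, and 19.6% reached that unadjusted p. With 8 probes of 2 genes, a count of 0 is near that background. The change was above 0 for 6 of the 8 probes, against 45% of all tested probes, and 0 of 8 had groups that did not overlap, against 1.73%. The mean over the probes of a gene differed by 0.36 ± 0.27 for PLAU (adjusted p = 0.50) and by 0.23 ± 0.26 for PLAT (adjusted p = 0.67), both by limma. All tested probes had a median change of -0.05. The 95% intervals of the bright PLAT probes lay between 0.80-fold and 2.07-fold and each held changes of either sign. In bulk tissue fewer cells of a type and less RNA per cell cannot be told apart.

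**Figure D2:**
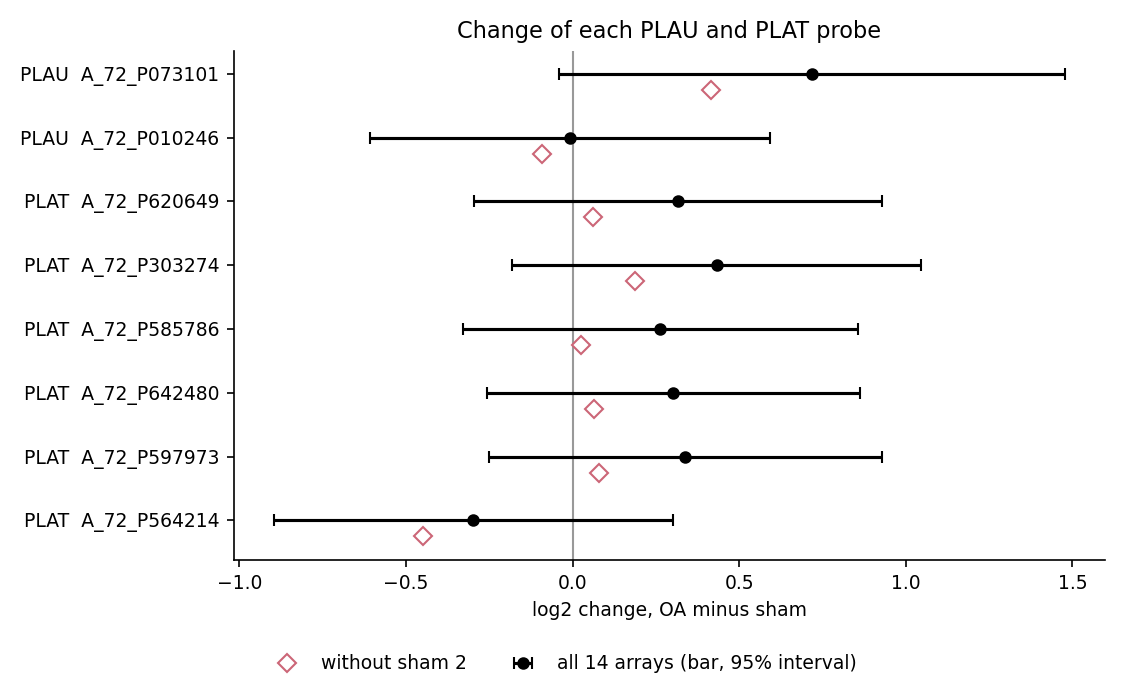
Log2 change, OA minus sham, of each probe with its 95% interval over all 14 arrays (black), and the same change without sham 2 (open diamonds). Every interval crosses 0, and the 6 positive changes shrink without sham 2, that of PLAU A_72_P073101 from 0.72 to 0.42.

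Sham 2 carried much of the sham spread on the bright probes of both genes. It was the lowest sham array on all 8 probes and the lowest of all 14 arrays on the 6 bright ones. On PLAU A_72_P073101 the SD of the log2 values was 0.91 in sham and 0.53 in OA, and the sham SD was larger than that of 95.1% of all tested probes. Without sham 2 the sham SD was 0.47. On the 5 bright PLAT probes the sham SD was 0.66 to 0.72, and without sham 2 it was 0.14 to 0.32. On the dim probes it moved less, from 0.48 to 0.46 for PLAU and from 0.61 to 0.50 for PLAT. Sham 2 also had the lowest 75th percentile of the sham arrays, 418.

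Leaving sham 2 out moved every bright probe toward 0. The log2 difference of PLAU A_72_P073101 became 0.42 (limma adjusted p = 0.46), and those of the bright PLAT probes became 0.02 to 0.19 (limma adjusted p = 0.71 to 0.97). The Dixon gap test asks whether an extreme value stands apart from the other 6. Over all tested probes sham 2 was a low outlier by it on 0.747% and a high outlier on 0.781%. Sham 4 was above it on both sides (1.1% and 1.45%), and the other sham arrays were at 0.031% to 0.40% low and 0.090% to 0.27% high. The 5 bright PLAT probes were all among the low outliers of sham 2.

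Summed marker genes of some other cell types were low on sham 2. The sum of 3 endothelial genes (PECAM1, CDH5 and CLDN5), adhesion and junction proteins of the vessel lining, was 2753 on sham 2 and 5923 to 13892 on the other sham arrays. On the OA arrays it was 5322 to 13605, and each of the 3 genes was lowest on sham 2 among the sham arrays. The sum of 5 macrophage genes was 5284 on sham 2, 7720 to 26152 on the other sham arrays and 12869 to 23532 on the OA arrays, with 3 of the 5 genes lowest on sham 2. Sham 2 had the lowest sham sum for 4 of 9 marker lists. They also included smooth muscle (14240 against 16558 to 34479) and adipocyte genes (1882 against 3216 to 7648). Sham 5 had the lowest sham sum for the neutrophil, T cell and synovial lining lists. Of all 46 marker genes tested singly, 13 were lowest and 7 highest on sham 2 among the sham arrays. A sum follows its brightest genes: among the 5 smooth muscle genes 2 were lowest on sham 2, and among the 7 adipocyte genes 3 were lowest there and CIDEC and DGAT2 were highest.

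It had the highest sham sum for 2 lists. The sum of 4 fibrochondrocyte genes was 237269 on sham 2 and 109961 to 189845 on the other sham arrays, with 3 of the 4 highest there. That of 4 synovial lining genes was 36393 against 19232 to 31533, but only CLU was highest on sham 2 and CD55 was lowest. The part of these differences in the low PLAU and PLAT values of sham 2 was not tested. Between the groups the sums overlapped for all 9 lists, and no sum was at 0 on any array. In OA the fibrochondrocyte sum ranged from 137042 to 285334. Neutrophil genes summed to 79.6 to 148 on sham and 119 to 701 on OA arrays, T cell genes to 237 to 1739 and 188 to 1036, and skeletal muscle genes to 3953 to 14302 and 2981 to 7754.

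Of the 46 marker genes tested singly, 2 were higher in OA by limma and 0 lower, against the 3.23% of named genes called. LEP, the leptin gene of adipocytes, was higher by 0.74 ± 0.16 (SE, n = 7 per group, adjusted p = 0.021), with groups that did not overlap, though the other of its 2 probes had the opposite sign. TNNI1, a troponin of slow muscle, was higher by 0.71 ± 0.18 (adjusted p = 0.041). With the slide as a random block their adjusted p-values were 0.17 and 0.21. S100A12, a neutrophil protein, stood at 1.27 ± 0.37 (adjusted p = 0.065) and MYH7, a slow myosin, at 0.97 ± 0.29 (adjusted p = 0.075), both by limma and both above the sham mean on 7 of 7 OA arrays. Of the 7 MYH7 probes 5 had that sign. The MYH7 probe quoted was dim, with median scaled signals of 27.4 on sham and 42.3 on OA arrays. Other genes of the same lists differed from these. Of the 8 skeletal muscle genes tested, 5 had changes above 0. TNNT3 stood at -0.44 ± 0.66, ACTA1 at -0.38 ± 0.29 and TNNT1 at -0.31 ± 0.27. Of the 7 adipocyte genes 5 were above 0, with CIDEC at -0.34 ± 0.47 and ADIPOQ at -0.18 ± 0.27. All 3 neutrophil genes were above 0, with S100A8 at 0.24 ± 0.42. The part of the cells that these lists mark in the PLAU and PLAT values was not tested.

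**Figure D3:**
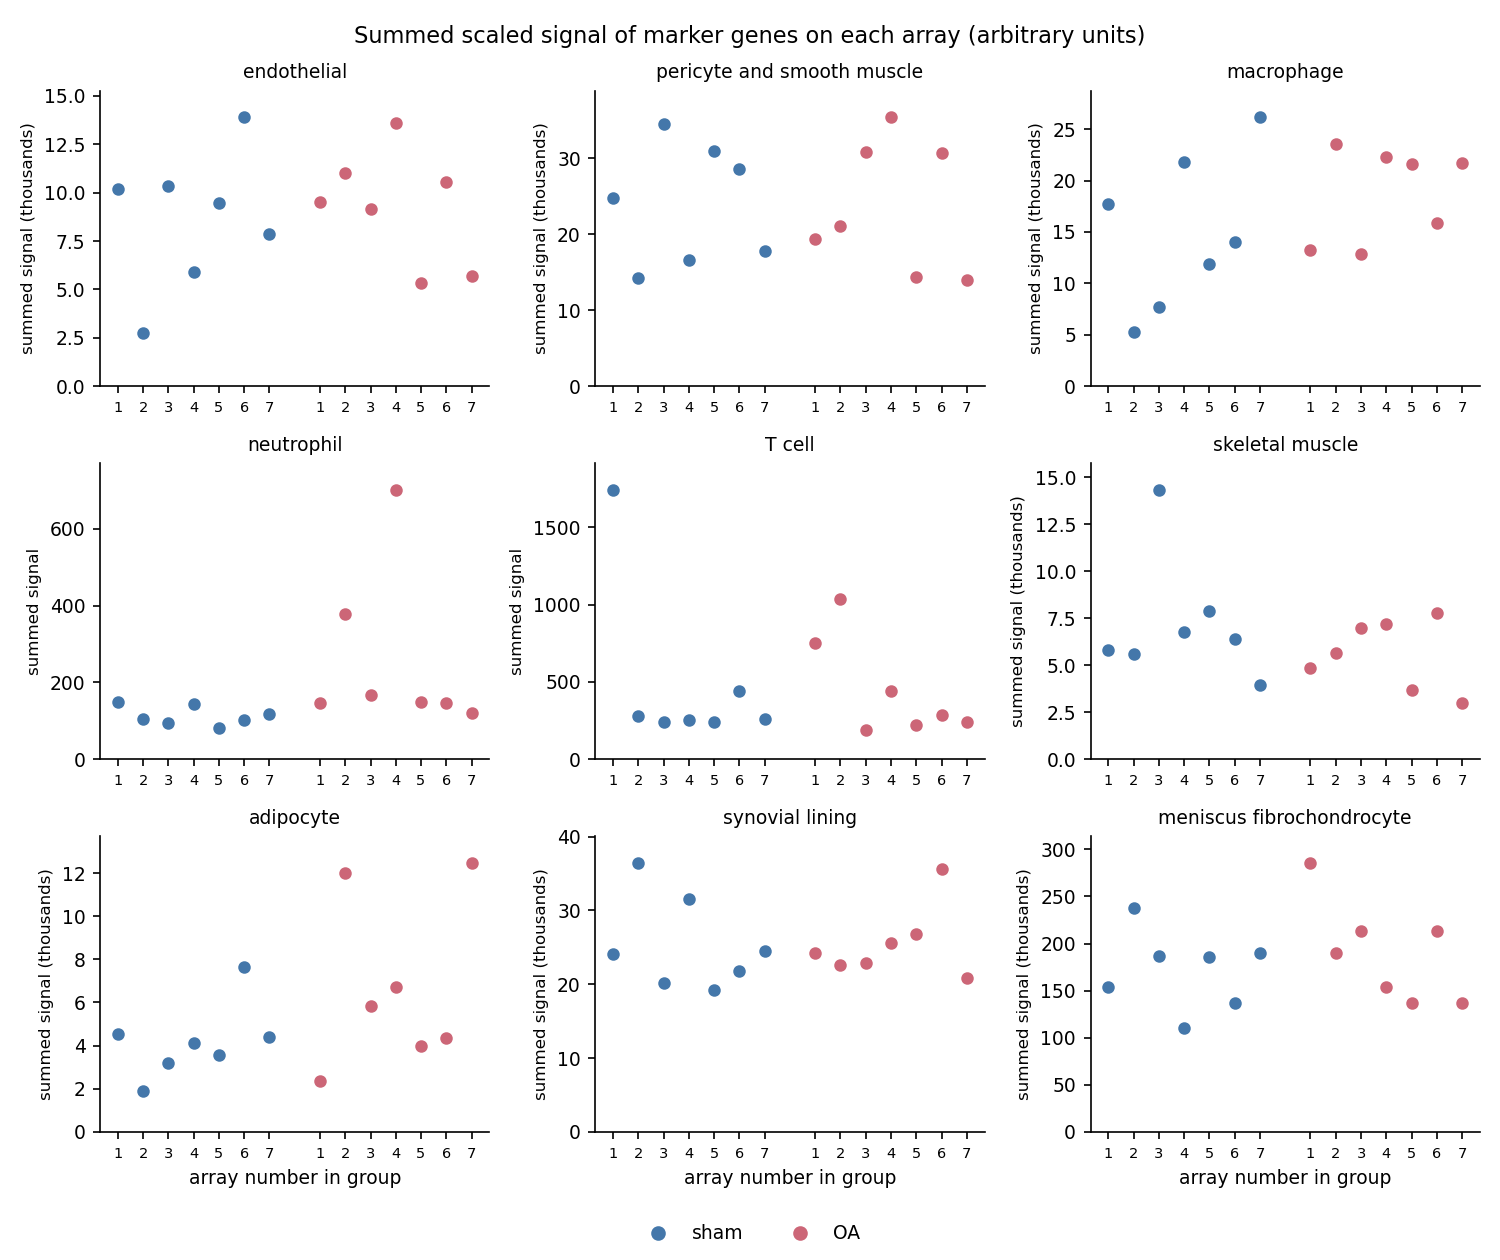
Summed scaled signal of the measured genes of 9 marker lists on each array (linear axes from 0), sham in blue and OA in red, points numbered by array. Sham 2 has the lowest endothelial and macrophage sums of the 14 arrays, 2753 and 5284, and the highest fibrochondrocyte sum among the sham arrays, 237269.

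Whether the probes changed unequally was asked within each array, where the scaling cancels. All 28 pairs of member probes were compared by a two-sided exact permutation test over 3432 assignments of the arrays, and 0 passed an adjusted p of 0.05. PLAU A_72_P073101 exceeded PLAT A_72_P620649 in its OA minus sham change by 0.40 on the log2 scale (95% interval -0.21 to 1.02, n = 7 per group, exact p = 0.17, adjusted p = 0.44). Its excess over the 5 bright PLAT probes ranged from 0.29 to 0.46. The 2 PLAU probes differed from each other by 0.73 (95% interval -0.19 to 1.64, exact p = 0.11, adjusted p = 0.44).

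Among the 5 bright PLAT probes the changes differed by 0.01 to 0.17, with intervals that all lay between -0.29 and 0.44, narrower than the intervals of the other 18 pairs. The dim PLAT probe stood 0.56 to 0.73 below the bright ones. Its largest departure by p was from A_72_P642480, at 0.60 (95% interval 0.02 to 1.18, n = 7 per group, exact p = 0.044, adjusted p = 0.44), the only pair of the 28 with an unadjusted p under 0.05. The number of such pairs was 0 without sham 2 and without slide 4, and 2 after normexp background correction. It was 4 by quantile normalization and in the authors' table, 6 without OA 6 and 10 without slide 5 (smallest exact p = 0.0038). After adjustment 0 passed in each. The change of the bright PLAT probes minus that of the dim one was -0.21 to 0.02 after normexp (exact p = 0.37 to 0.97). Without slide 4 it was 0.003 to 0.24.

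The bright PLAT probes moved together across animals and the dim one did not follow them closely. With the group means subtracted, Pearson's r over the 14 arrays was 0.88 to 0.97 among the 10 pairs of bright PLAT probes and 0.70 to 0.92 without sham 2. The dim PLAT probe had r of 0.29 to 0.59 with them, and -0.13 to 0.39 without sham 2. The PLAU probes had r of 0.31 with each other. These are descriptions of probes that share arrays and, within a gene, a transcript.

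A relation between PLAU and PLAT across animals was weaker without the lowest sham arrays. Over both groups, with group means subtracted, the brightest probes of the genes had r = 0.72 (n = 14, permutation p = 0.020, adjusted p = 0.16 over 18 relations). Spearman's rho was 0.49 (permutation p = 0.083, adjusted p = 0.40). Without sham 2 and sham 3, the arrays farthest from the median of the PLAU probe, r was 0.36. Leaving them out narrows the range of that probe, which by itself can lower r. Within the sham group r was 0.89 (n = 7, exact p = 0.074) and 0.11 without those arrays, and within the OA group it was 0.21 (n = 7, exact p = 0.63).

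The 2 dim probes were PLAU A_72_P010246 and PLAT A_72_P564214. Over both groups, with group means subtracted, they had r = 0.57 (n = 14, permutation p = 0.033, adjusted p = 0.16) and rho = 0.54. Leaving out OA 5 and sham 4 gave 0.56. Within sham r was 0.83 (n = 7, exact p = 0.035), but 0.13 without sham 2 and sham 4, and within OA it was 0.37 (n = 7, exact p = 0.41). Array brightness, the 75th percentile, was compared over both groups after the group means were subtracted. It had r of -0.02 with PLAU A_72_P073101 and -0.04 with PLAT A_72_P620649. By group it was 0.84 in sham and -0.61 in OA for PLAU, and 0.68 and -0.53 for PLAT (n = 7 per group). None of the 18 relations passed after adjustment.

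**Figure D4:**
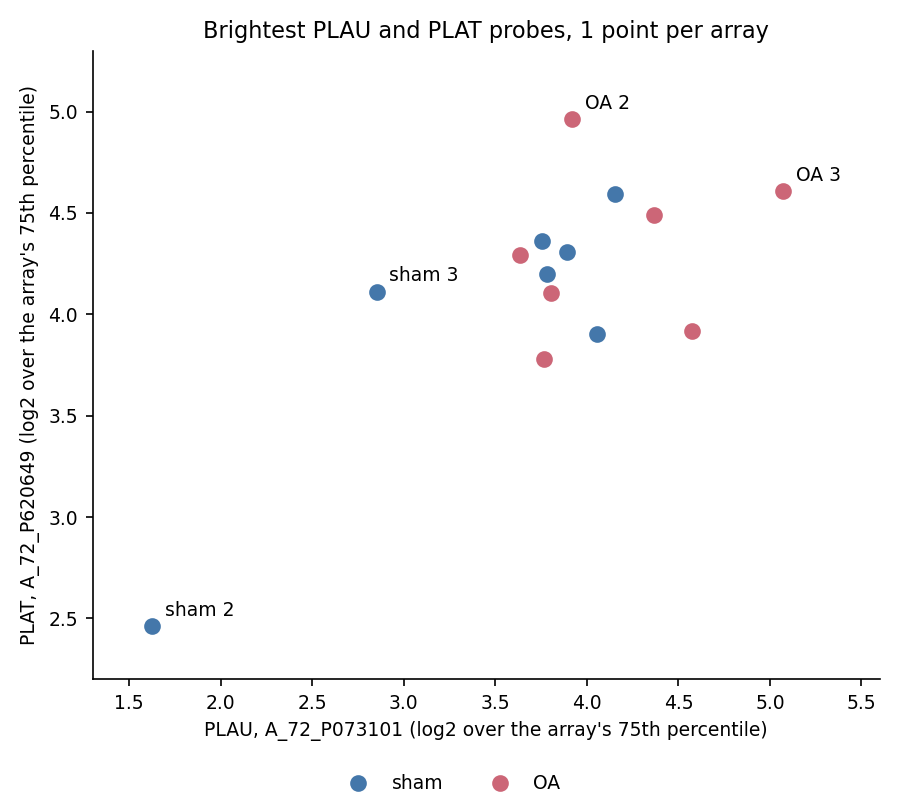
Log2 value over the array's 75th percentile of PLAU A_72_P073101 (horizontal) against PLAT A_72_P620649 (vertical), 1 point per array, sham in blue and OA in red. Sham 2 lies alone at the lower left (1.63 and 2.46) and the other arrays form a cloud in which the groups overlap.

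Other genes were ranked by how closely they followed each probe across the 14 arrays, with group means subtracted, among 2255 named genes. Nearest to PLAU A_72_P073101 were LGALS3, a galectin made by macrophages and chondrocytes (r = 0.87, and 0.75 without sham 2), RGS2, a regulator of G protein signalling (0.82), LIMA1, an actin-binding protein (0.80), ALOX5AP, which serves leukotriene synthesis (0.80), and MUC19, a gel-forming mucin (0.79). Nearest to the dim PLAU probe were other genes: ADAM10, a membrane sheddase (r = 0.91), TLR4, a receptor of innate immunity (0.87), SST, the somatostatin gene (0.85), SGCB, a sarcoglycan (0.85), and KLF4, a transcription factor (0.82). No gene was among the nearest 5 of both PLAU probes.

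The 5 bright PLAT probes shared several of their nearest genes, which were 14 in all. FUT1, a fucosyltransferase, was among the nearest 5 of all 5 probes (r = 0.81 to 0.88) and SLC7A7, an amino acid transporter subunit, of 4 (r = 0.84 to 0.88). CD34, a surface protein of vessels and progenitor cells, KIT, a receptor tyrosine kinase, NPC2, a cholesterol carrier of lysosomes, and NR2F2, a nuclear receptor of venous endothelium, were each among the nearest of 2. The r of NR2F2 with PLAT A_72_P642480 was 0.84 and 0.42 without sham 2. Nearest to the dim PLAT probe were GUCY1A3, a subunit of the nitric oxide receptor (r = 0.87), FYN, a tyrosine kinase (0.82), GATA2, a transcription factor (0.78), NPY1R, a neuropeptide receptor (0.77), and SST (0.76).

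Around the activators, 79 further genes were listed and 40 could be tested. They were receptors, inhibitors, plasminogen and contact activators, coagulation genes, targets, and genes known to induce the activators in culture. On the OA arrays 1 was higher and 0 were lower by limma, and 5 had an unadjusted p under 0.05, against 3.23% called and 15.3% with an unadjusted p under 0.05 over the 2257 named genes tested. The median log2 change of the 40 was 0.19, against 0.00 for all named genes. The receptor of urokinase, PLAUR, was not analysed here.

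Of the receptors and binding partners 5 of 12 genes were tested and 0 passed. All 5 leading probes had changes above 0, against 1140 of the 2257 named genes tested. ITGB3, the integrin subunit of the vitronectin receptor, came closest at 0.61 ± 0.17 (SE, n = 7 per group, limma adjusted p = 0.055), with scaled signals of 42999 to 66747 on sham and 59414 to 113735 on OA arrays. The other ITGB3 probe, A_72_P223672, stood at 0.32 ± 0.21 (limma adjusted p = 0.41). ITGAV, the partner of ITGB3, stood at 0.29 ± 0.20 (adjusted p = 0.45), with that sign on 3 of its 5 probes. Another ITGAV probe, A_72_P696261, stood at -0.42 ± 0.19 (limma adjusted p = 0.23). ANXA2, which binds tissue-type activator and plasminogen at the cell surface, stood at 0.40 ± 0.24 (adjusted p = 0.37), although only 1 of its 3 probes had that sign. PLGRKT, a plasminogen receptor, stood at 0.12 ± 0.29, with that sign on 2 of its 4 probes. ITGB2, a leukocyte integrin subunit, stood at 0.35 ± 0.35.

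Of the protease inhibitors 2 of 8 genes were tested and 0 passed. SERPINE2, protease nexin, which inhibits thrombin and urokinase, stood at 0.33 ± 0.55 (limma adjusted p = 0.78). Its scaled signals were 1422 to 7671 on sham and 765 to 16041 on OA arrays. Of the 3 SERPINE2 probes 2 had that sign, and A_72_P472491 stood at -0.63 ± 0.53 (limma adjusted p = 0.55). SERPING1, the C1 inhibitor, stood at -0.04 ± 0.25 (adjusted p = 0.95). Among plasminogen and the contact activators 2 of 5 were tested and 0 passed. PLG, plasminogen itself, is made mainly in liver, and both of its probes were dim. The brighter had medians of 25.3 on sham and 29.6 on OA arrays and a log2 difference of 0.24 ± 0.21 (limma adjusted p = 0.56), and the other, A_72_P609264, stood at -0.84 ± 0.38 (limma adjusted p = 0.24). F12, the contact factor, stood at -0.32 ± 0.28.

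Of the fibrin and coagulation genes 10 of 22 were tested and 0 passed. F8, the cofactor of intrinsic coagulation, stood at 0.64 ± 0.19 (limma adjusted p = 0.077), higher than the sham mean in 7 of 7 OA arrays. THBD, thrombomodulin, stood at 0.44 ± 0.32, F5 at 0.42 ± 0.39 and F7 at -0.37 ± 0.23. Of the targets of plasmin or urokinase 10 of 18 were tested and 0 passed. The matrix metalloproteinases MMP9, MMP14 and MMP12 stood at 0.38 ± 0.35, 0.36 ± 0.30 and -0.51 ± 0.38, and TGFB1, whose latent form plasmin can release, at -0.22 ± 0.23.

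The single call lay among the genes known to induce the activators in culture, of which 11 of 14 were tested. LIF, a cytokine that signals through gp130 as IL6 does, was higher in OA by 0.68 ± 0.14 (SE, n = 7 per group, limma adjusted p = 0.014). Its scaled signal ran from 33.5 through 37.0 to 45.4 on sham and from 51.9 through 62.9 to 69.7 on OA arrays, and the groups did not overlap. The LIF probe was dim, with a geometric mean processed signal of 48.1 over the arrays. As for PLAU, its higher OA values are relative to each array's other probes, and the OA arrays were dimmer. With the slide as a random block its adjusted p was 0.12, and 0.0464% of all probes were called by that fit. IL6 stood at 1.26 ± 0.50 (adjusted p = 0.17), with scaled signals of 77.2 to 238 and 78.7 to 1027.

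IL1A, an interleukin 1 cytokine, stood at 0.39 ± 0.15 (adjusted p = 0.16) and VEGFA, a vessel growth factor, at -0.80 ± 0.62 (adjusted p = 0.51), both by limma. Over all 76 tested probes of these genes 2 were called higher. The other call was the dimmer probe of TNF, A_72_P538206, at 0.66 ± 0.15 (limma adjusted p = 0.025). The brighter TNF probe stood at -0.15 ± 0.23. This TNF probe was picked out after its value was seen.

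**Figure D5:**
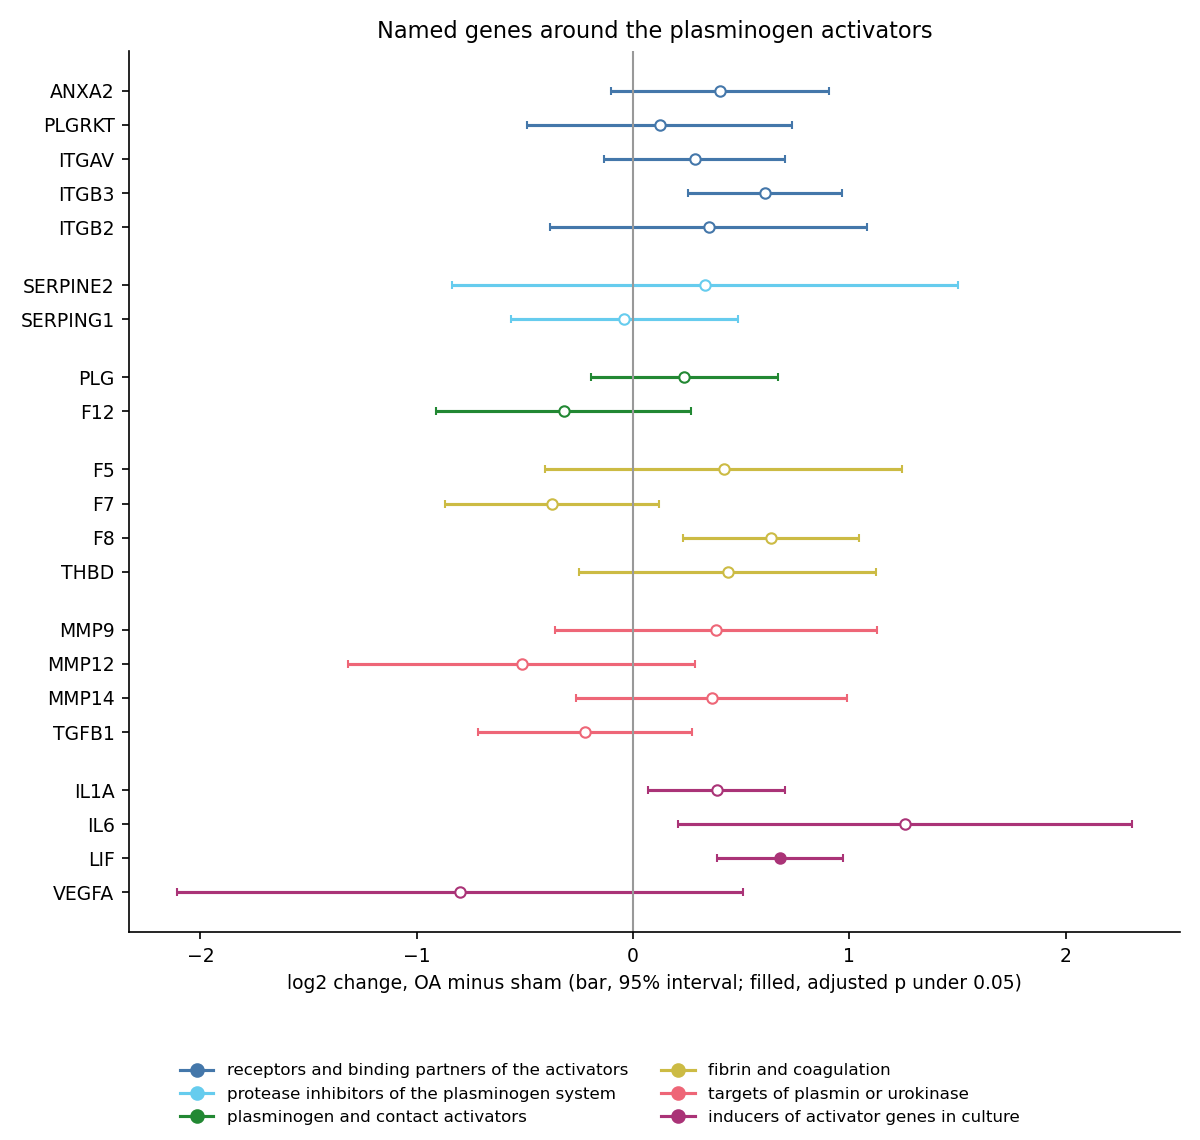
Log2 change, OA minus sham, with 95% intervals, of the named genes around the activators, coloured by role. The filled point, LIF at 0.68, is the only one with an adjusted p under 0.05, and the intervals of ITGB3, F8, IL1A and IL6 also lie above 0 before adjustment.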

How the data were processed

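The members and gene lists were chosen with earlier results of these data known. Per the labels' protocols, total RNA was amplified and labelled with Cy3, 1 array per sample. Per the file headers, Agilent Feature Extraction 11.0.1.1 wrote the deposited intensity values and subtracted the local background. The authors' deposited table of log2 values ranked probes as the scanner signal did (Spearman rho 0.994 to 1.00) and served as an alternative, with its making not given in the sources used here.

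From the log2 processed signal each array's 75th percentile (control spots left out) was subtracted. Spots whose feature was marked as an outlier were set missing (82 in all, 0 of the 112 member spots). Spots marked only for their local background were kept, and 13 member spots had such a mark. A probe was tested if it was well above background on 7 or more of the 14 arrays. The fit used limma 3.58.1 under R version 4.3.3 (OA minus sham, lmFit, eBayes, two-sided, Benjamini-Hochberg over 38818 probes, threshold 0.05). The number of arrays limits the precision. Changes of pairs of member probes were compared by exact permutation, and relations over 14 arrays by permutation with 100000 resamples. The simulated-data check of the fit is not quoted.

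RefSeq transcripts named 5461 of 5779 probes through the Sscrofa11.1 gene table. The probe with the highest mean signal stood for a gene. Named were all member probes, all measured receptors, inhibitors and plasminogen genes, the 4 genes with the smallest unadjusted p of each other list, and the 5 nearest genes of each member probe; not every gene it selects is reported here. No coordinates are printed, since the sources used here name no build for the array.

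Alternatives were other normalizations (quantile, median, normexp with an offset of 50), filters, variance settings, blocks, a brightness covariate, the authors' table, and leaving out arrays or slides. The files hold no mean signal, so normexp used the median signal with the median background.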

Additional observations from a re-analysis of the deposited data

Results flagged for a closer look

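In each group of 7 arrays the highest and lowest values of the reported probes were checked for a gap to the nearest other array of more than 0.568 of the group's range. Of 58 groups checked, 7 had such a value, and chance gives about 1 group in 20; the bright PLAT probes share a transcript and are not independent. Values here are log2 over the array's 75th percentile.

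Sham 2 stood below the other 6 sham arrays on all 5 bright PLAT probes. It was at 2.46 on PLAT A_72_P620649, where the others were at 3.91 to 4.59. It was at 2.30 on A_72_P303274 (others 3.86 to 4.25) and at 2.25 on A_72_P585786 (others 3.51 to 4.44). On A_72_P642480 it was at 1.63 (others 3.02 to 3.69) and on A_72_P597973 at 1.12 (others 2.64 to 3.21).

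OA 2 stood above the other OA arrays on PLAT A_72_P642480, at 3.99 against 3.07 to 3.37. For IL1A, sham 3 was low at -4.09, with the other sham arrays at -3.80 to -3.59, and that probe was dim on every array.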

How the results depend on the processing

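No PLAU or PLAT probe passed the threshold under any of the alternatives run, 33 for each probe, and the lowest adjusted p of any was 0.17 (limma; PLAU A_72_P073101 after normexp). That probe and the PLAT probes A_72_P620649, A_72_P585786, A_72_P642480 and A_72_P597973 kept a positive sign throughout, and PLAU A_72_P073101 ranged from 0.17 without slide 1 to 1.13 without slide 2. The sign of PLAU A_72_P010246, at -0.01, turned to 0.0064 by median scaling, 0.053 by normexp, 0.11 with array weights, 0.25 with brightness as a covariate, 0.0038 without slide 2 and 0.013 without slide 5, and it ranged from -0.18 to 0.15 as single arrays were left out. PLAT A_72_P303274 turned to -0.039 without slides 3 and 4. PLAT A_72_P564214 turned to 0.23 by normexp, 0.14 with the brightness covariate and 0.00027 without slide 4. The count of unequal probe pairs was 0 in every setting run. Without slides 3 and 4 only 36 assignments were left, so that p-values were coarse there, and the smallest exact permutation p was 0.056.

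Of the 79 genes listed around the activators, inducers in culture included, the count called higher was 1 in the report. It was 3 by median scaling, 11 by normexp and 2 without a filter. The count was also 2 with the filter on all 14 arrays, with array weights, with trended and robust variances and without slide 3. It was 0 with the replicate block, with a random block for slide or for scan day, with the brightness covariate and without slide 1, slide 4, or slides 3 and 4, which are the 7 settings under which LIF missed the threshold (adjusted p = 0.070 to 0.21). Besides LIF, ITGB3 passed under 7 alternatives (adjusted p = 0.018 to 0.046), IL6 under 3 (0.012 to 0.035), F8 under 2 (0.030 to 0.041), and IL1A and PLG by normexp alone (0.00093 and 0.00048). The count ranged from 1 to 2 as single arrays were left out. The count of lower genes was 0 by limma in all 33 alternatives.

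Over all probes 1449 were called. The count was 2242 by quantile normalization, 18414 by normexp, 2551 without a filter, 2256 in the authors' table, 335 with the replicate block, 18 with slide and 148 with scan day as a random block, and 4 with the brightness covariate. It was 26 without slide 1, 642 without slide 2, 2710 without slide 3, 236 without slide 4, 2555 without slide 5 and 195 without slides 3 and 4, and 730 to 2710 as single arrays were left out. Calls split into 1120 higher and 329 lower in the report, 1568 and 674 by quantile normalization, 1385 and 784 by median scaling, 17636 and 778 by normexp, and 1509 and 747 in the authors' table. Normexp moved the median change of all probes from -0.05 to 0.34, so its changes are relative to that shift. The causes were not tested. The labels do not say whether the replicate numbers pair animals. With group means subtracted, r of same-numbered arrays was -0.19 to 0.27 over 7 pairs, which cannot settle it. With the replicate block the member probes had limma adjusted p-values of 0.33 to 0.99.

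None of the following genes was called in the report, and their signs turned. By normexp F12 was at 0.38, F7 at 0.69, ITGAV at -0.028 and MMP12 at 0.56, and F7 (adjusted p = 0.0023) and MMP12 (adjusted p = 0.0034) passed the threshold there in the opposite direction. With array weights PLGRKT was at -0.10 and SERPINE2 at -0.14. With the brightness covariate ANXA2 was at -0.14, F12 0.16, MMP12 0.51, MMP14 -0.62, PLGRKT -0.19, SERPINE2 -1.42, SERPING1 0.40 and THBD -0.18. Without slide 1 F12 was at 0.026, PLGRKT -0.30, SERPINE2 -0.27 and SERPING1 0.0040. Without slide 4 F12 was at 0.14, F5 -0.042, MMP12 0.10, MMP14 -0.18, PLGRKT -0.10, SERPINE2 -0.70 and THBD -0.15. Without slides 3 and 4 ANXA2 was at -0.077, F12 0.24, ITGB2 -0.18, MMP12 0.14, MMP14 -0.46, PLGRKT -0.10, SERPINE2 -1.11, SERPING1 0.038 and THBD -0.13. As single arrays were left out PLGRKT ranged from -0.077 to 0.25 and SERPING1 from -0.14 to 0.087.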
